A study of Mus musculus with 8 samples.

Results

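The 37 genes described here encode the integrins and laminins of the mouse. They are all rows of the deposited gene tables whose symbol is that of an integrin alpha chain, an integrin beta chain from Itgb1 to Itgb8, or a laminin alpha, beta or gamma chain. They make up 37 of the 23284 genes listed, with 18 integrin alpha chains, 8 integrin beta chains and 11 laminin chains. The study sequenced RNA of the lungs of 8 mice, all wild type (WT) and of the C57BL/6 strain, that had been given donor bone marrow and then spent 3 days in hypoxia. In 4 of them the donor marrow lacked all 3 nitric oxide synthases (triply n/i/eNOS-/-, called NOS-null marrow here), and in the other 4 the donor marrow was WT (WT marrow). The labels do not name a promoter, a Cre line, an irradiation dose, or the age or sex of the mice. The recipients' own lung cells kept the synthases, so the groups differ, by their labels, in the genotype of the transplanted marrow alone. No lungs kept in normal air were analysed here.

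Integrins are receptors made of 1 alpha and 1 beta chain that hold cells to the surrounding matrix or to each other and signal across the membrane in both directions. Laminins are trimers of 1 alpha, 1 beta and 1 gamma chain, and they form the sheet of the basement membrane on which epithelium, endothelium and muscle sit. In the lung the air-blood barrier is a pair of cell layers on a fused basement membrane, and leukocytes use integrins of the beta-2, alpha-4 and beta-7 kinds to leave the blood. The 37 genes were sorted by the cells best known to make them. The leukocyte class holds Itga4, Itgad, Itgae, Itgal, Itgam, Itgax, Itgb2 and Itgb7, and the platelet class Itga2b and Itgb3. Itga5, Itga6 and Lama4 form the endothelial class, although none of these is made by endothelium alone. The epithelial class of 6 genes includes Itga2, Itgb4, Itgb6, Lama3 and Lamb3, and the mesenchymal class holds Itga7, Itga8, Itga9, Itga10, Itga11 and Lama2. The other 12 are made by several of these cell types.

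Library totals ran from 7767070.0 to 8625140.0 scaled reads, that is, read counts per gene that, judging from the values, the authors had divided by a size factor per library. Values are scaled reads given as mean ± SD over 4 libraries per group unless FPKM (fragments per kilobase of transcript at a common depth, the scale used to compare genes of different length) is named. The labels name separate mice but not how they were housed or processed, so each p-value reflects only the variation among these 8 libraries. The deleted gene Nos2 stood at 13.3 to 43.5 with NOS-null marrow and 87.4 to 115 with WT marrow, in the direction of the labels. Nos3, which the recipients' endothelium also makes, stood at 177 to 219 and 171 to 207, and Nos1 was listed at 0 in 7 libraries and at 1.09 in the other. Lung markers were present throughout: the summed FPKM of 7 alveolar type 2 genes was 16929.6 to 27532 and that of 10 endothelial genes 1764 to 2236. Blood cell markers differed between libraries. NOS-null marrow replicate 1 held 41180.4 FPKM of 6 neutrophil genes, against 1678 to 3749 in the other 3 of its group and 580.2 to 1594 with WT marrow. Replicates 1 and 2 of NOS-null marrow also held the most of the pan-leukocyte genes, 935 and 469 FPKM, while replicate 3 held 339, replicate 4 held 374 and the WT libraries 300.0 to 429.

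Per length, the beta-1 chain dominated the family. Itgb1, the partner of most alpha chains that bind collagen, laminin and fibronectin, stood at 337 ± 21.1 with NOS-null and 403 ± 24.4 with WT marrow, several times the level of any other gene of the 37. Itga8, the nephronectin receptor chain of lung fibroblasts and myofibroblasts, came next at 78.0 ± 4.81 with NOS-null and 66.4 ± 5.65 with WT marrow. The place of the leukocyte beta-2 chain Itgb2 differed by group, since it stood at 67.0 ± 30.6 with NOS-null marrow and at 38.1 ± 5.14 with WT marrow, where Itga1 (39.7 ± 3.09) and Itgb5 (38.5 ± 1.34) were at about the same level. A broad middle group between 30.2 and 38.0 FPKM (mean of all 8 libraries) included Itgb5, Itga1, Lamb1, Lamb2, Itga6, Lamc1 and Itga3. From Lamb1 down to Itga3 neighbours in the order lay closer together than the spread of their own libraries. Lamb3 at 25.0 and Lama4 at 20.8 FPKM followed. At the low end Lama1, a laminin alpha chain of the embryo, had 0.456 FPKM, Itgad 0.369, Itga10 0.356, Itga11 0.214 and Itgb8 0.134. Itga11, a collagen receptor chain of fibroblasts, and Itgb8, a chain that activates latent transforming growth factor beta (TGF-beta), did not reach 10 scaled reads in 4 libraries and were not tested. Itga11 stood at 5.13 to 14.6 scaled reads with NOS-null and 3.97 to 13.1 with WT marrow, and Itgb8 at 2.05 to 5.92 and 1.87 to 4.97.

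**Figure D1:**
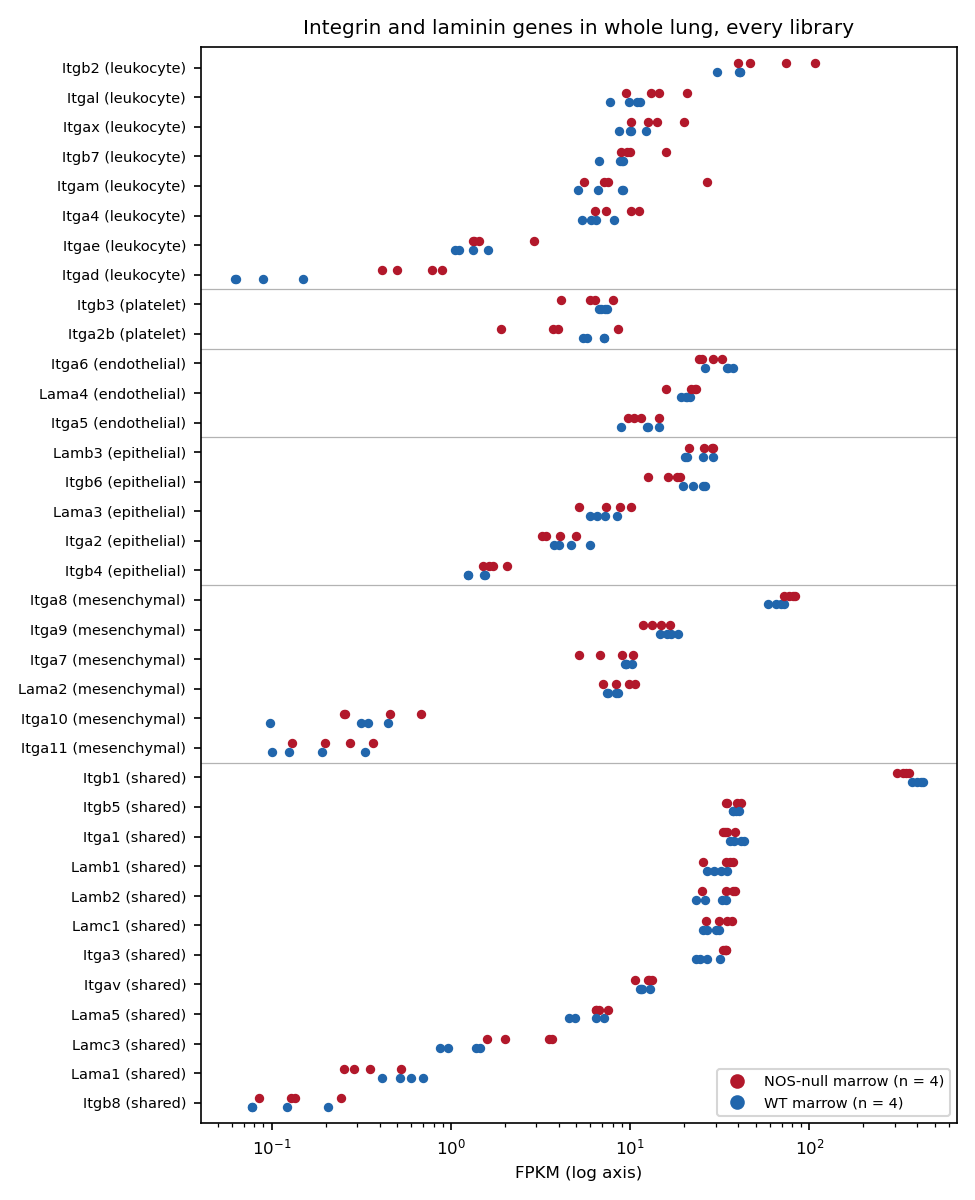
FPKM (log axis) of 36 of the 37 integrin and laminin genes in each of the 8 libraries, red for NOS-null and blue for WT marrow, ordered by class and mean level. Itgb1 is the highest gene in every library, with 308 FPKM in its lowest one, and the 2 groups lie fully apart for Itgad, Lamc3, Itga3, Itgb6 and Itgb1.

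Of the 35 tested genes 1 passed the test between the marrow groups. Itgad, the alpha-D chain of the beta-2 integrins, rose with NOS-null marrow. No gene passed as lower. All tests used limma on log2(scaled reads + 1) with Benjamini-Hochberg adjustment over 14008 genes at a threshold of 0.05, and changes are NOS-null minus WT marrow. Of all 14008 tested genes 4.05% were called, 1.87% higher and 2.18% lower, so 1 of 35 (2.86%) is below the share of the whole table. The 4 values of 1 group lay entirely above those of the other for 5 of the 35 (14.3%), namely Itgad, Lamc3, Itga3, Itgb6 and Itgb1, against 17.1% of all tested genes. The NOS-null values were the higher ones for 3 of the 35 (8.57%), against 7.82% of all genes, and the lower ones for 2 of the 35 (5.71%), against 9.29%. At an unadjusted p under 0.05 there were 11 of 35 (31.4%), against 26.6% of all. The median log2 change of the 35 was 0.14, against 0.00 over all genes, and 23 of 35 were positive, against 50.1% of all. For 28 of the 34 genes that did not pass, the 95% interval of the change lay within 2-fold in either direction, and for 18 of these within 1.5-fold. The intervals of Itga10, Itga2b, Itgam, Itgb2, Lama1 and Lamc3 reached past 2-fold.

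**Figure D2:**
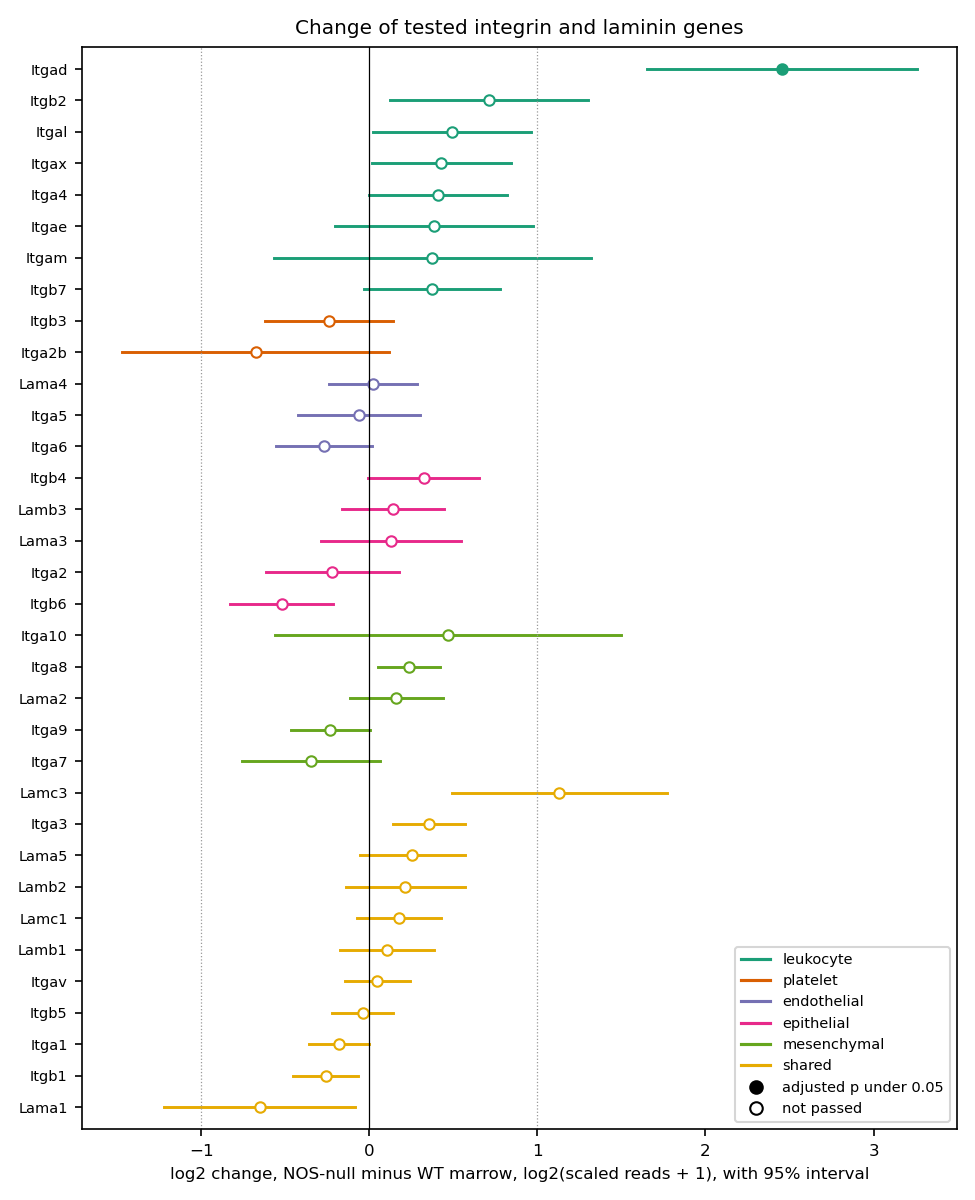
Log2 change (NOS-null minus WT marrow, scale of log2(scaled reads + 1)) of 34 of the 35 tested genes with 95% intervals, coloured by class. The filled point marks Itgad at 2.46, the gene past the adjusted threshold, and dotted lines mark a 2-fold change.

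Itgad encodes a chain that pairs with beta-2 on subsets of macrophages, and it lies in a cluster with the related genes Itgam and Itgax on chromosome 7 (Itgad at 128154376 to 128223816, plus strand, GRCm38, the assembly of mm10). Itgad stood at 24.6, 28.1, 15.8 and 13.1 scaled reads in NOS-null marrow replicates 1 to 4 and at 1.99, 4.68, 1.97 and 2.84 in WT marrow replicates 1 to 4. Every NOS-null library was above every WT library, and replicates 1 and 2 were the highest. The means were 20.4 ± 7.13 against 2.87 ± 1.28 (adjusted p = 0.0107, log2 change 2.46 with SE 0.36 and a 95% interval from 1.65 to 3.26, n = 4 per group). In a whole lung, more cells that make the transcript and more transcript per cell cannot be told apart. The gene passed the filter on low values only through the NOS-null libraries, since all WT libraries were under 10, so the call says little beyond the separation of the values. Rounded to whole steps taken as reads, Itgad had about 79 reads over the 4 NOS-null libraries and 12 over the 4 WT libraries. Their ratio was 7.05, with an exact 95% interval of 3.82 to 14.2 that covers counting error only. Whole reads were not recovered, so this interval is approximate, and it leaves out the variation between mice. With any 1 library left out the call held (adjusted p 0.0128 to 0.0458). It was lost without both NOS-null marrow replicates 1 and 2 (log2 change 2.04, adjusted p = 0.0771). The filter on low values was not applied again in these fits, so they do not test whether Itgad would have been kept.

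Other annotated genes overlap 19.7% of the exonic bases of Itgad in GENCODE release M21. Among them is Cox6a2, a muscle form of a respiratory chain subunit, on the opposite strand, and the labels name no step that marks strand, so reads of the overlap cannot be told apart. Cox6a2 stood at 103 to 159.9 scaled reads with NOS-null and 72.1 to 116 with WT marrow. These ranges overlap, unlike those of Itgad, and whether shared reads take part in the Itgad values was not tested.

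The genes next to Itgad are Itgam, the CD11b chain of neutrophils, monocytes and macrophages, and Itgax, the CD11c chain of dendritic cells and alveolar macrophages. Their gene starts lie upstream of it on chromosome 7, with 3.7 kb between Itgax and Itgad and 11.1 kb between Itgam and Itgax. The upstream windows of Itgam and Itgax are shown because the 3 neighbours share a beta partner. Itgad has no entry in the RefSeq promoter set used, so nothing is read from these windows about the separation of its groups. The bases are those of RefSeq on GRCm38.p6, 5′ to 3′ on the plus strand and ending at the base before the gene start, with GAGGAA or its reverse complement TTCCTC in capitals, a core that the myeloid factor PU.1 can bind.
Itgam upstream, chr7:128062390-128062639: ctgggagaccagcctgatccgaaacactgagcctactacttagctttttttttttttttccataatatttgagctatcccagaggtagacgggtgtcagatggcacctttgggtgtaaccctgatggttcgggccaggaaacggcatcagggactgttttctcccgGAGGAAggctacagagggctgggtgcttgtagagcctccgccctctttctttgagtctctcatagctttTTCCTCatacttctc
Itgax upstream, chr7:128129300-128129546: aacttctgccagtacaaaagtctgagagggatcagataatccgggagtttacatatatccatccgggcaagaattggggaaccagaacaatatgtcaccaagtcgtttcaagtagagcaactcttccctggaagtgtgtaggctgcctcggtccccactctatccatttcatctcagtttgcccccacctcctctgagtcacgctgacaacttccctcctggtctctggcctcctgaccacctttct
The Itgam window holds the core 2 times, starting 84 and 15 bases before the gene start, and the Itgax window does not hold it. Among 32851 upstream windows of 250 bases in the same RefSeq table, 23.3% hold it on either strand, so its presence is common and marks no binding site by itself.

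Of the 8 leukocyte genes 1 rose, against 1.87% of all genes, none fell and 7 did not pass. The gene that rose was Itgad, which passed the filter on low values only through the NOS-null libraries, so nothing is read from this count. All 8 log2 changes were positive (median 0.42, against 0.00 over all genes). Itgb2, the CD18 chain shared by all beta-2 integrins, stood at 2389.9, 1641, 891 and 1043 in NOS-null marrow replicates 1 to 4 and at 900.2, 909, 911 and 678 with WT marrow. Replicates 1 and 2 of NOS-null marrow were far above the rest, replicate 3 lay inside the WT range, and the groups overlapped (1491 ± 681 against 849 ± 114, adjusted p = 0.129, log2 change 0.71 with SE 0.27 and a 95% interval from 0.12 to 1.30). Itgal, the CD11a chain of lymphocytes and most other leukocytes, had the same order of NOS-null libraries, at 878, 609, 400.3 and 547 against 415, 459.9, 479.9 and 326 (adjusted p = 0.173, log2 change 0.49 with SE 0.21 and a 95% interval from 0.02 to 0.96). Its groups overlapped as well, with replicate 3 of NOS-null marrow below 3 of the 4 WT libraries.

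Itgam was high in a single library. It stood at 1005, 267, 206 and 284 with NOS-null and 342, 249, 339 and 192 with WT marrow, so only NOS-null replicate 1, the library with the high neutrophil markers, exceeded the WT range. The change was 0.37 (adjusted p = 0.593) with all libraries and −0.13 without that one (adjusted p = 0.733). In GENCODE a read-through gene on the same strand covers 68.7% of its exonic bases. Itgax instead peaked in NOS-null replicate 2, at 449, 635, 323 and 401 against 323, 392, 320.3 and 278, with overlapping groups (log2 change 0.43, adjusted p = 0.174).

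The remaining leukocyte chains differed in which NOS-null library was highest. Itga4, which with beta-1 or beta-7 binds VCAM-1, MAdCAM-1 and fibronectin, stood at 903, 820.5, 517 and 589 against 488, 659, 518 and 437 (log2 change 0.41, adjusted p = 0.192). Itgb7, the partner of alpha-4 and alpha-E on gut-homing and intraepithelial lymphocytes, stood at 327, 207, 184 and 198 against 182, 185, 189 and 138 (log2 change 0.37, adjusted p = 0.222). NOS-null replicate 1 stood far above the rest for Itgb7, with replicates 2 and 4 just above the WT range, while replicates 1 and 2 were both high for Itga4. Itgae, the CD103 chain of intraepithelial T cells and a dendritic cell subset, was high in replicate 2 alone, at 41.0, 88.5, 43.4 and 40.2 against 33.8, 48.7, 40.4 and 32.1 (log2 change 0.38, adjusted p = 0.368). For all 3 genes the marrow groups overlapped.

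Markers of different blood cells went in different directions. All 6 pan-leukocyte markers had positive log2 changes (median 0.37, 0 called), as did all 6 tested neutrophil markers (median 2.02, 0 called) and all 8 monocyte and interstitial macrophage markers (median 0.55, 0 called). Of 7 T cell markers 6 had positive changes (median 0.73, 0 called). Natural killer cell markers went the other way, all 6 tested being negative (median −1.46). Of these 6, 3 were called lower, against 2.18% of all genes. All 5 B cell markers tested were negative too (median −2.23, 0 called). Of 8 dendritic cell markers and of 7 alveolar macrophage markers 1 each was called lower, against 2.18% of all genes. These were Cd209a (log2 change −2.37, adjusted p = 0.00947) and Siglec5 (−1.52, adjusted p = 0.00248). The medians were 0.08 and 0.01, with 4 positive changes in each list. The alveolar macrophage genes Marco (−2.81, adjusted p = 0.0585) and Fabp1 (−1.96, adjusted p = 0.124) were lower without passing. Both were listed at 0 in 1 NOS-null library each. The mean deviation of a gene list, its mean log2 value in a library minus the mean of the 8 libraries, was −0.10 to 0.84 for the leukocyte genes with NOS-null and −0.62 to −0.13 with WT marrow. These ranges do not overlap, but without Itgad they did, at −0.24 to 0.74 and −0.54 to −0.06. Pan-leukocyte markers overlapped too, at −0.31 to 1.04 and −0.52 to −0.02. The FPKM of Itgb2 per FPKM of Ptprc (CD45, on all leukocytes) was 1.34 to 1.71 with NOS-null and 1.11 to 1.44 with WT marrow. The part of leukocyte number in the leukocyte integrin values was not tested. With NOS-null marrow replicates 1 and 2 both left out, the median of the 8 genes was 0.15.

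**Figure D3:**
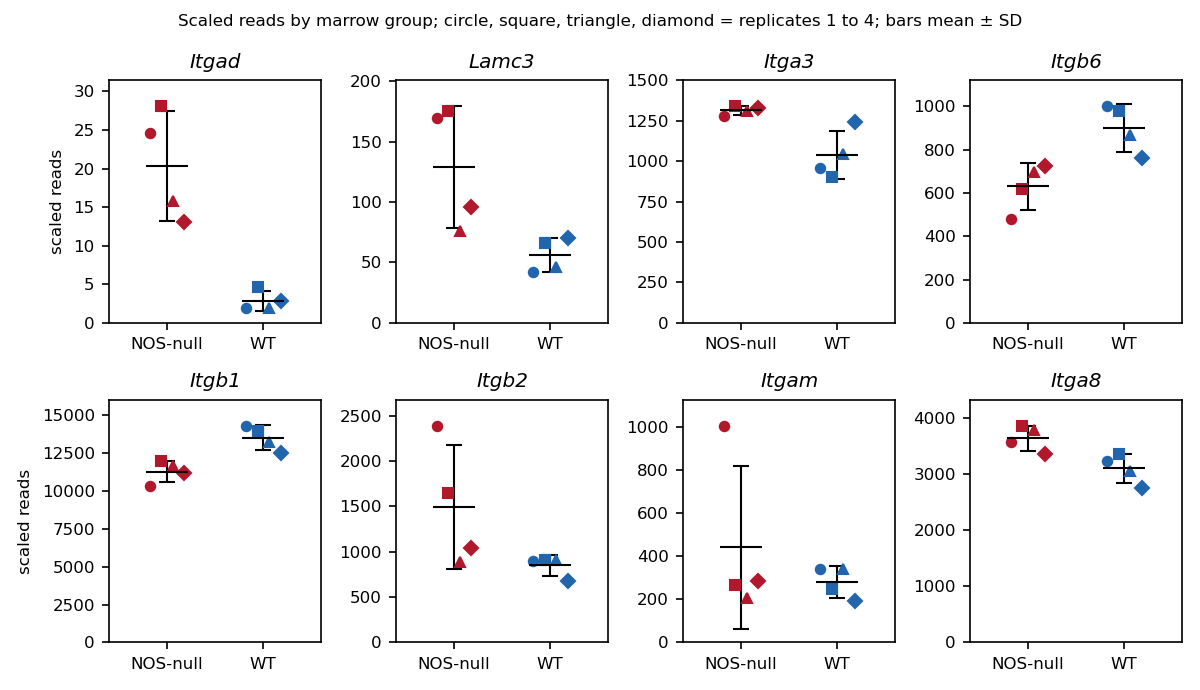
Scaled reads of 8 integrin and laminin genes in each library, with replicates 1 to 4 as circle, square, triangle and diamond and bars for mean ± SD (n = 4). Itgad, Lamc3 and Itga3 are higher and Itgb6 and Itgb1 lower in all 4 NOS-null libraries, while Itgb2, Itgam and Itga8 overlap between the groups.

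Both platelet chains had negative log2 changes and neither passed. Itga2b, the alpha-IIb chain of the platelet fibrinogen receptor, stood at 233, 99.96, 51.3 and 108 in NOS-null replicates 1 to 4 and at 156, 193, 147 and 194 with WT marrow. NOS-null replicate 1 was the highest of all 8 libraries, replicate 3 was the lowest and all but replicate 1 were below every WT library (123 ± 77.4 against 172 ± 24.5, adjusted p = 0.249, log2 change −0.68 with SE 0.36 and a 95% interval from −1.47 to 0.12). Without that replicate it passed (log2 change −1.05, adjusted p = 0.0413), and with any other single library left out it did not (adjusted p up to 0.449). Its partner Itgb3, which also joins alpha-V on endothelium and other cells, had the same highest and lowest libraries, at 376, 298, 191 and 279.5 against 322, 337, 312 and 345 (286 ± 75.9 against 329 ± 14.7, adjusted p = 0.382, log2 change −0.24 with SE 0.17 and a 95% interval from −0.62 to 0.14). The summed FPKM of 8 platelet markers was also highest in NOS-null replicate 1, at 233, against 74.4 to 105 in the other 3 and 123 to 169 with WT marrow. Platelet content and expression per platelet cannot be told apart here.

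None of the 3 endothelial genes passed (median log2 change −0.06). Itga6, a laminin receptor chain that is abundant on lung capillaries and also made by epithelium, stood at 1092, 812, 840.0 and 966 against 1259.9, 1177, 1167 and 880.1. Of the WT libraries 3 were above every NOS-null library and WT replicate 4 lay inside the NOS-null range (927 ± 128 against 1121 ± 166, adjusted p = 0.211, log2 change −0.27 with SE 0.13 and a 95% interval from −0.56 to 0.02). Lama4, the alpha chain of the laminins of vessel walls, stood at 778, 1128, 1147 and 1067 against 941, 1007, 1051 and 1014, with NOS-null replicate 1 the lowest of the 8 (1029.9 ± 171 against 1003 ± 46.0, adjusted p = 0.922, log2 change 0.02 with SE 0.12 and a 95% interval from −0.24 to 0.29). The sign of the Lama4 change varied with the setting. Itga5, the fibronectin receptor chain, spanned 340.4 to 507 with NOS-null and 309 to 505 with WT marrow, almost the same range (log2 change −0.06, adjusted p = 0.835). None of the 10 endothelial markers was called either (median −0.07).

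Among the epithelial genes none of 6 passed, with 4 positive and 2 negative log2 changes (median 0.13). The lowest change was that of Itgb6 (chromosome 2, 60598292 to 60722643, minus strand), whose product pairs with alpha-V on epithelium, binds the latency peptide of TGF-beta and activates it. Itgb6 stood at 482, 621, 697 and 724 in NOS-null replicates 1 to 4 and at 1002, 979, 866 and 760.0 with WT marrow. Every NOS-null library was below every WT library, though NOS-null replicate 4 and WT replicate 4 lay close together. The means were 631 ± 109 against 902 ± 111 (adjusted p = 0.0578, log2 change −0.52 with SE 0.14 and a 95% interval from −0.83 to −0.22). The gene passed without NOS-null replicate 4 (log2 change −0.60, adjusted p = 0.0439). With any other single library left out Itgb6 did not pass (adjusted p up to 0.163). Alveolar epithelial markers were compared in the same lungs. None of the 5 airway markers tested or of the 7 alveolar type 1 markers was called (type 1 median 0.05), nor any of the 7 alveolar type 2 markers (median −0.06), and their mean deviations were −0.05 to 0.06 and −0.32 to 0.09 with NOS-null against −0.09 to 0.10 and −0.03 to 0.15 with WT marrow. The type 2 deviation was lowest in NOS-null replicate 1, the library with the lowest Itgb6. Of the 7 type 2 markers 3 had positive and 4 negative log2 changes. Lamp3 was the 1 of the 7 whose NOS-null values all lay below the WT values, against 9.29% of all genes (log2 change −0.47, adjusted p = 0.0658). The FPKM of Itgb6 per FPKM of the type 1 marker Hopx was 0.0077 to 0.0146 with NOS-null and 0.0138 to 0.0212 with WT marrow. On this scale the groups overlapped through replicate 4 of each. The part of epithelial content in the Itgb6 values was not tested.

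Among the other epithelial genes, Lamb3, a laminin beta chain of epithelial anchoring contacts, stood at 689, 921, 832 and 932 against 653, 936, 665 and 821 (adjusted p = 0.530, log2 change 0.14 with SE 0.14 and a 95% interval from −0.16 to 0.44). Its groups overlapped, and WT replicate 2 was the highest of all 8 libraries. Lama3, an alpha chain of the same contacts, ranged from 439.8 to 856 with NOS-null and 507 to 714 with WT marrow (log2 change 0.13, adjusted p = 0.690). Itgb4, the hemidesmosome chain that joins alpha-6 to bind laminin-332, ranged from 73.8 to 101 against 60.5 to 75.9 (log2 change 0.32, adjusted p = 0.197). Itga2, a collagen receptor chain of epithelium and platelets, ranged from 109 to 167 against 126 to 199.5 (log2 change −0.22, adjusted p = 0.441). NOS-null replicate 1 had the lowest Lama3, Itga2 and Itgb6 of all 8 libraries.

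The mesenchymal chains split in sign, and none of the 5 tested passed (median log2 change 0.16). Itga8 stood at 3574, 3865, 3783 and 3363 against 3245, 3364, 3053 and 2758. Of the NOS-null libraries 3 were above every WT library, and NOS-null replicate 4 was just below WT replicate 2 (3646 ± 225 against 3105 ± 264, adjusted p = 0.117, log2 change 0.23 with SE 0.08 and a 95% interval from 0.05 to 0.42). Itga9, a receptor chain for tenascin C, osteopontin and VCAM-1 on smooth muscle and other cells, stood at 585, 669, 805 and 745 against 795, 754, 834 and 897 (701 ± 94.9 against 819.9 ± 60.9, adjusted p = 0.189, log2 change −0.23 with SE 0.11 and a 95% interval from −0.47 to 0.00). NOS-null replicates 1, 2 and 4 were below every WT library and replicate 3 was inside the WT range. Itga7, the laminin receptor chain of muscle, was low in NOS-null replicates 1 and 2, at 165, 217, 330.3 and 288 against 328, 299.7, 302 and 303 (log2 change −0.35, adjusted p = 0.252). Lama2, the alpha chain of muscle and mesenchymal basement membrane, had ranges of 561 to 851 and 592 to 678 (log2 change 0.16, adjusted p = 0.431), and Itga10, a low collagen receptor chain, 10.3 to 27.6 and 3.97 to 18.0 (log2 change 0.47, adjusted p = 0.537). In GENCODE another gene on the same strand covers 33.5% of the exonic bases of Itga10.

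Of 8 smooth muscle markers in the same lungs 4 were called lower (median −0.51), against 2.18% of all genes, and 4 did not pass. Lmod1 and Synpo2, of these 4, had positive log2 changes of 0.34 (adjusted p = 0.178) and 0.28 (adjusted p = 0.194). Myh11 did not pass either (log2 change −0.17, adjusted p = 0.309). The summed FPKM of all 8 smooth muscle markers was 1113 to 1429.6 with NOS-null and 2131 to 2398 with WT marrow. The largest terms of this sum were 2 of the called genes, Acta2 (mean 518 against 1048 FPKM) and Tagln (436 against 831 FPKM). Of the 10 mesenchymal markers 1 was called higher (median 0.09), against 1.87% of all genes, and of 4 mesothelial markers none. The part of smooth muscle content in the Itga7 and Itga9 values was not tested.

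Of the genes made by several cell types none of 11 tested passed. The groups did not overlap for 3 of the 11, against 17.1% of all tested genes. Lamc3 (chromosome 2, 31887291 to 31946539, plus strand), the gamma-3 chain, a rare alternative to gamma-1, had the largest change of the laminins. It stood at 169, 175, 75.9 and 95.7 in NOS-null replicates 1 to 4 and 41.7, 66.5, 46.3 and 70.0 with WT marrow. NOS-null replicates 1 and 2 were far above every WT library, and replicates 3 and 4 just above the WT range. The means were 129 ± 50.5 against 56.1 ± 14.2 (adjusted p = 0.0538, log2 change 1.13 with SE 0.29 and a 95% interval from 0.49 to 1.77). Lamc3 passed without NOS-null replicate 3 (log2 change 1.35, adjusted p = 0.0291) and without NOS-null replicate 4 (log2 change 1.24, adjusted p = 0.0491). With any other single library left out it did not pass (adjusted p up to 0.155).

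Itga3 (chromosome 11, 95044474 to 95076801, minus strand), the receptor chain for laminin-332 and laminin-511 on epithelium and endothelium, stood at 1279.5, 1340.0, 1312 and 1328 against 959.8, 902, 1042 and 1242. The NOS-null libraries lay within a narrow band above all WT libraries, of which replicate 4 came closest (1315 ± 26.2 against 1036 ± 149, adjusted p = 0.0631, log2 change 0.35 with SE 0.10 and a 95% interval from 0.14 to 0.57). Without WT replicate 4 it passed (log2 change 0.44, adjusted p = 0.0330), and with any other single library left out it did not (adjusted p up to 0.169). Itgb1 (chromosome 8, 128685654 to 128733200, plus strand), the common beta chain, went the other way, at 10299.8, 11930.1, 11608 and 11179.8 against 14302, 13954, 13232 and 12462. All 4 NOS-null libraries were below all WT libraries (11254 ± 707 against 13487 ± 816, adjusted p = 0.0968, log2 change −0.26 with SE 0.09 and a 95% interval from −0.45 to −0.07). The interval of Itgb1 excludes a change of 1.5-fold in either direction.

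Itga1, a collagen and laminin receptor chain of capillaries, pericytes and smooth muscle, ranged from 1588 to 1859 with NOS-null and 1754 to 2085 with WT marrow (log2 change −0.18, adjusted p = 0.185). Itgav and Itgb5, which together bind vitronectin, were close to even, Itgav at 705 ± 65.8 against 681 ± 42.6 (log2 change 0.05, adjusted p = 0.757) and Itgb5 at 884, 1072, 1017 and 898 against 968, 1005, 963 and 1037 (968 ± 91.7 against 993 ± 34.8, adjusted p = 0.769, log2 change −0.04 with SE 0.08 and a 95% interval from −0.22 to 0.14). Their ranges overlapped, and the intervals of both lay within 1.5-fold. Itgb6 thus had lower values in all NOS-null libraries while its alpha partner Itgav did not.

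Lamc1, the gamma chain of most laminins, ranged from 1647 to 2294 with NOS-null and 1575 to 1939.8 with WT marrow (log2 change 0.18, adjusted p = 0.326), Lamb1 from 1189 to 1739 and 1256 to 1611 (log2 change 0.10, adjusted p = 0.621), and Lamb2, the beta chain of mature vessel and alveolar membranes, from 1137 to 1749 and 1061 to 1562 (log2 change 0.21, adjusted p = 0.403). NOS-null replicate 1 was the lowest of its group for these 3, and WT replicates 1 and 3 were the lowest of theirs, so the groups overlapped. Lama5, the alpha chain of laminin-511 under alveolar epithelium and endothelium, ranged from 603 to 707 and 429 to 671 (log2 change 0.26, adjusted p = 0.263). Lama1 was the single laminin with a negative change, at 22.6, 19.8, 27.6 and 41.3 against 46.7, 54.3, 40.4 and 32.1 (log2 change −0.65, adjusted p = 0.143), and its groups overlapped through NOS-null replicate 4. Of the 11 laminin genes 10 had positive changes, with a median of 0.14, and none passed.

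Chain make-up was compared as the share of each chain in the summed FPKM of its family within a library, as a description. Lama4 gave the largest share of the laminin alpha chains in every library, 45.2 to 49.3% with NOS-null and 45.4 to 52.9% with WT marrow. Lama2 gave 17.2 to 21.6% and 18.5 to 19.5%, Lama3 14.9 to 20.9% and 15.6 to 18.5%, and Lama5 13.6 to 18.5% and 11.3 to 15.8%. The groups overlapped for each of the 5 alpha chains, for the 3 beta chains and for the gamma chains. Lamc3 made up 2.22 to 5.78% of the gamma chains with NOS-null and 1.56 to 2.33% with WT marrow, overlapping through WT replicate 4.

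Among the integrin beta chains the balance of beta-1 and beta-2 did separate the groups. Itgb1 gave 63.2, 70.4, 75.5 and 73.9% of the beta chain FPKM across NOS-null replicates 1 to 4, against 77.0 to 77.9% in the WT libraries. Itgb2 gave 22.0, 14.5, 8.71 and 10.4% against 6.36 to 7.96%. The WT libraries lay close together, and NOS-null replicates 1 and 2, the libraries with the most pan-leukocyte markers, were farthest from them. A share can differ because 1 chain is higher or because another is lower, and here the mean of Itgb2 was larger and that of Itgb1 smaller with NOS-null marrow. The shares of Itgb4 and Itgb7 also lay apart, at 0.310 to 0.407% against 0.227 to 0.299% and at 1.94 to 3.24% against 1.39 to 1.78%. In scaled reads the groups overlapped for Itgb2, Itgb4 and Itgb7 (adjusted p = 0.129, 0.197 and 0.222). The shares of a family depend on each other, and how often shares lie apart in other families was not measured, so nothing is read from these separations. Among the alpha chains Itga1 gave a nearly constant 12.3 to 12.6% with NOS-null and 14.5 to 15.7% with WT marrow, although its scaled reads overlapped between the groups. Itgb5 gave 7.03 to 8.58% and 6.84 to 8.40%, a share like that of Itgb2 in the WT libraries. Of the alpha chains that pair with beta-2, Itgal gave 33.4 to 38.8% and 33.9 to 37.4%, nearly constant, while Itgam reached 42.9% in NOS-null replicate 1 and Itgax 46.9% in NOS-null replicate 2. Itgad made up 1.24 to 2.11% with NOS-null and 0.205 to 0.496% with WT marrow, a minor chain in both groups.

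**Figure D4:**
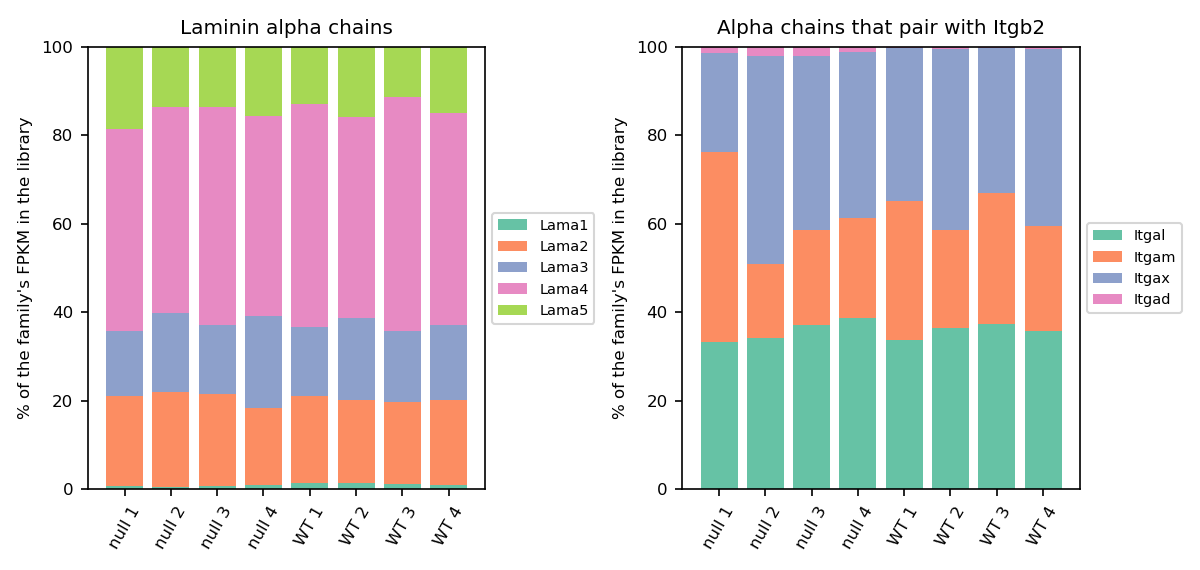
Share (%) of each laminin alpha chain (left) and each beta-2 partner alpha chain (right) in the summed FPKM of its family, 1 bar per library. Lama4 is the largest laminin share in all 8 bars, and Itgam widens to 42.9% in NOS-null replicate 1.

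Genes that work with integrins and laminins were taken from lists written from general knowledge. Of 31 adaptor genes that link integrins to actin, 1 rose, against 1.87% of all genes, none fell and 30 did not pass (median log2 change 0.04). Tns1, the gene of tensin 1, which binds beta chain tails at fibrillar adhesions, stood at 14937, 15734, 12169.7 and 9839.8 with NOS-null and 7887, 6821, 7956 and 8539 with WT marrow. The groups did not overlap (13170.1 ± 2695 against 7801 ± 716, log2 change 0.74, SE 0.15, adjusted p = 0.0296), but the call was lost in 5 of 8 fits that left out 1 library, those without NOS-null replicate 2 or any 1 WT replicate (adjusted p up to 0.0973). Flna, filamin A, which with Tns1 had the highest mean scaled reads of the adaptors, did not pass (7707 ± 807 against 9029.5 ± 1154, adjusted p = 0.226). Per length other adaptors were higher, such as Rap1b at 258 FPKM against 123 for Flna (mean of all libraries). The talin gene Tln1 (0.16, adjusted p = 0.301) and the kindlin genes Fermt2 (−0.24, adjusted p = 0.0714) and Fermt3 of blood cells (0.39, adjusted p = 0.355), whose products activate integrins, did not pass.

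Of 17 integrin ligands of the matrix 2 were called higher and 2 lower, against 1.87% and 2.18% of all genes, and 13 did not pass (median −0.45). Spp1, osteopontin, a ligand of alpha-V, alpha-4 and alpha-9 integrins, stood at 2299.7, 3215, 1696 and 1233 against 432, 301, 470.1 and 413 (log2 change 2.31, SE 0.26, adjusted p = 0.00253). Tnc, tenascin C, a ligand of alpha-9 and alpha-V integrins, stood at 143, 182, 358 and 359 against 804, 938, 779 and 959 (log2 change −1.84, SE 0.27, adjusted p = 0.0108). The groups of both lay far apart, in opposite directions, and both calls held in all 8 fits that left out 1 library. Vwf, von Willebrand factor, bound by the platelet receptor of Itga2b and Itgb3, was higher (4579 ± 855 against 2473 ± 410.0, log2 change 0.88, SE 0.15, adjusted p = 0.0191), and Postn, periostin, a ligand of alpha-V integrins, lower (5906 ± 862 against 8635 ± 664, log2 change −0.56, SE 0.11, adjusted p = 0.0316). Their calls were lost in 4 and 5 of these 8 fits, without NOS-null replicate 2 or single WT replicates (adjusted p up to 0.0744 and 0.107). Ligands of this list were already known to differ when it was written, so nothing is read from its count. The alpha chains of receptors of Spp1 and Tnc among the 37 genes did not pass, Itgav at 0.05, Itga4 at 0.41, Itga9 at −0.23 and Itga8 at 0.23 (log2 changes). Of the tested beta chains that pair with them, Itgb1 was at −0.26, Itgb3 at −0.24, Itgb5 at −0.04, Itgb6 at −0.52 and Itgb7 at 0.37. None of these passed, and the groups did not overlap for Itgb1 and Itgb6.

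The other partners showed no calls. None of 20 basement membrane genes passed (median 0.03). The most abundant were Sparc (29199 ± 6467 against 39174 ± 3485, adjusted p = 0.129) and the type IV collagen gene Col4a1 (8846 ± 596 against 10817 ± 1413, adjusted p = 0.121). The laminin linkers Nid1 (0.01, adjusted p = 0.974) and Hspg2, perlecan (0.03, adjusted p = 0.900), were near 0, as was Npnt, the nephronectin ligand of alpha-8 (0.03, adjusted p = 0.909). None of 11 genes of other laminin receptors passed (median −0.01), the most abundant being Rpsa (7434 ± 545 against 8606 ± 945, adjusted p = 0.208) and Bcam (5463 ± 514 against 5260.2 ± 106, adjusted p = 0.726). Of 13 genes for cell-surface and fibrinogen ligands of integrins 9 were tested and none passed (median −0.01). Icam1 and Icam2, which the beta-2 integrins bind on endothelium, stood at 4729.6 ± 513 against 4462 ± 477 (adjusted p = 0.634) and 2668 ± 219 against 2669.5 ± 255 (adjusted p = 0.999), and Vcam1 at 1007 ± 368 against 1023 ± 165 (adjusted p = 0.833).

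Set side by side, the classes had median log2 changes of 0.42 for leukocyte, −0.46 for platelet, −0.06 for endothelial, 0.13 for epithelial, 0.16 for mesenchymal and 0.10 for shared genes. The mean deviations of the endothelial genes were −0.17 to 0.11 with NOS-null and −0.06 to 0.12 with WT marrow, those of the epithelial genes −0.31 to 0.20 and −0.12 to 0.25, and those of the mesenchymal genes −0.31 to 0.36 and −0.27 to 0.11. In these 3 classes the groups overlapped. Platelet genes ran from −1.02 to 0.55 and 0.08 to 0.35, a wide NOS-null range around a narrow WT range. The leukocyte class was the 1 class whose groups lay apart, by the small margin given above and only with Itgad included. With the shared genes added to every class known to make them, the medians were 0.40 for leukocytes with platelets, −0.06 for endothelial, 0.13 for epithelial and 0.03 for mesenchymal genes. With 1 library left out the platelet median ran from −0.72 to −0.20, the epithelial from 0.037 to 0.22 and the mesenchymal from 0.050 to 0.24, and with the filter of 50 scaled reads the mesenchymal median was −0.037. Differences between classes were not tested.

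**Figure D5:**
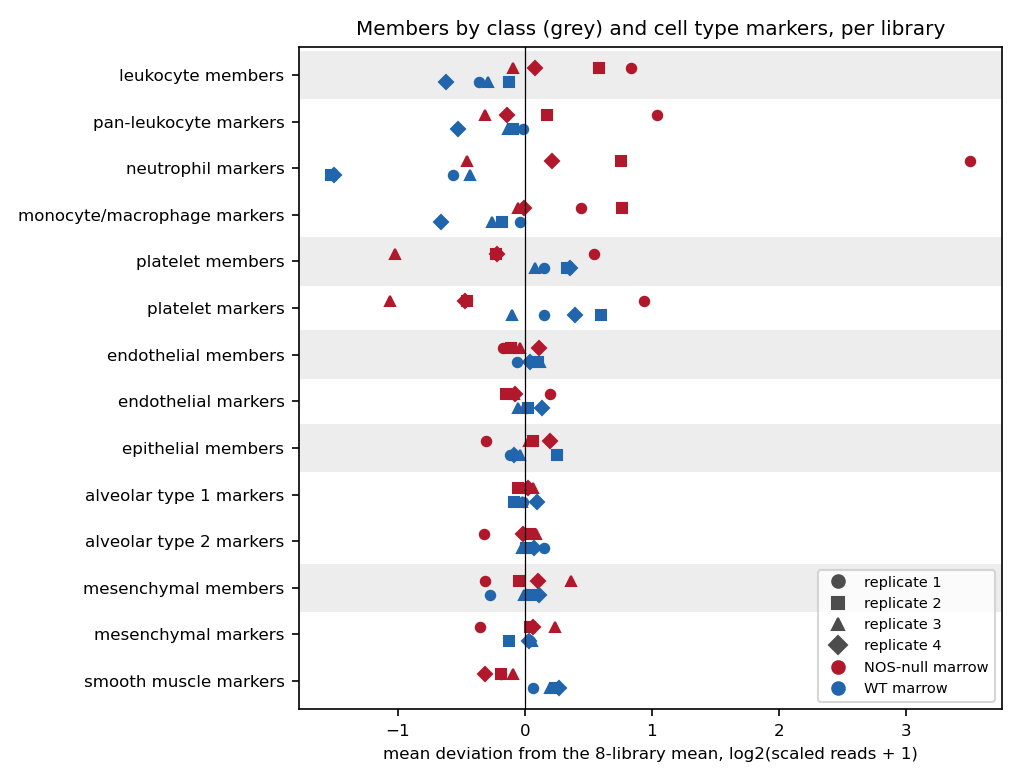
Mean deviation (log2 scale) from the 8-library mean for 5 classes of integrin and laminin genes (grey bands) and for cell type markers, per library; shapes mark replicates 1 to 4, red NOS-null and blue WT marrow. NOS-null replicate 1 reaches 0.84 for leukocyte genes and 3.51 for neutrophil markers, while endothelial, epithelial and mesenchymal genes overlap between the groups.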

How the data were processed

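Per the labels, mRNA of each lung was made into double-stranded cDNA and sequenced from 1 end with 75-base reads. Per the submitters' processing notes, the tools were CASAVA 1.8.2, TopHat2 2.0.13, Bowtie2 2.2.3, SAMtools 0.1.19 and Cufflinks 2.2.1 on mm10. No source used here gives the gene annotation or settings. Groups follow the sample titles, because the design text of the series describes both groups with the same donor genotype.

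The deposited count-scale table holds signal values; judging from the values themselves, the authors divided read counts by 1 size factor per library. Among values below 50 reads 98.4 to 98.8% per library were whole multiples (tolerance 0.05) of a step taken as 1 read. However, 8 to 15 values per library lay below that step, so no count model was used for the tests. The deposited FPKM table of the authors served for comparing levels between genes and as an alternative.

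Genes with at least 10 scaled reads in at least 4 libraries (14008 of 23284, and 35 of the 37) were fitted with limma 3.58.1 (R 4.3.3, trend on) on log2(value + 1), and p-values were adjusted over all of them. The pseudocount of 1 understates changes of low genes. In simulated data with the spread of these libraries (14008 genes) the fit recovered 25 of 67 genes changed by 1.5-fold, 49 of 67 by 2-fold and 63 of 66 by 4-fold, and of 144 calls 7 were false. All 37 symbols matched GENCODE M21 (GRCm38), and 23 had an entry in the RefSeq promoter table.

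The genes, their classes and the partner and marker lists were chosen with earlier results of these data known, so lists are described by counts and medians without a test. Values are given in full for genes that passed, for genes whose groups did not overlap, and for the 2 genes of highest FPKM in each class, except that 1 gene of the 37 is included in the counts and medians but is otherwise not reported here. Of partner lists, up to 4 called genes and the 2 of highest mean are named, and a few more were chosen after their values were seen. Alternatives covered the pseudocount, filter, scaling, unit, variance model, library weights, replicate block, class assignment and left-out libraries. Fits with left-out libraries kept the genes that had passed the filter over all libraries.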

Additional observations from a re-analysis of the deposited data

Results flagged for a closer look

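In 34 of the tested genes each group was checked for 1 library far from the other 3, 68 sets in all, and 7 were found where chance gives about 1 in 20. In NOS-null marrow, Itgam stood at 1005 in NOS-null marrow replicate 1, against 206 to 284 in the other 3. Itgb7 stood at 327 in NOS-null marrow replicate 1, against 184 to 207 in the other 3, the same library. Itgae stood at 88.5 in NOS-null marrow replicate 2, against 40.2 to 43.4 in the other 3.

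With WT marrow, 3 of the 4 involve replicate 4. Itgb2 stood at 678 in WT marrow replicate 4, against 900.2 to 911 in the other 3. Itgb7 stood at 138 in WT marrow replicate 4, against 182 to 189 in the other 3. Itgav stood at 744 in WT marrow replicate 4, against 651 to 665 in the other 3. In the remaining set, Itga7 stood at 328 in WT marrow replicate 1, against 299.7 to 303 in the other 3.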

How the results depend on the processing

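Itgad passed under every setting that tested it except without both NOS-null marrow replicates 1 and 2 (adjusted p = 0.0771), where 0 genes were called. A filter of 50 scaled reads in 4 libraries left Itgad out, again with 0 called. Its log2 change ran from 1.66 to 2.66, lowest with a pseudocount of 5. With array weights 2 genes were called higher (Itga3 joined, adjusted p = 0.0353) and 1 lower (Itgb6, adjusted p = 0.0460). Over the fits that left out 1 library 1 to 2 were called higher and 0 to 1 lower, while calls over all genes ran from 71 to 798 around 567, and were 185 without the trend and 181 without NOS-null replicates 1 and 2. The endothelial median ranged from −0.20 to 0.027 in these fits and was 0.11 without NOS-null replicates 1 and 2, and the shared median ranged from 0.043 to 0.23. Signs turned only for genes that did not pass. Itga5 was 0.019 with array weights, 0.014 without NOS-null replicate 1, 0.032 without WT replicate 4 and 0.11 without NOS-null replicates 1 and 2. Itgam was −0.10, −0.13 and −0.17 with array weights, without NOS-null replicate 1 and without replicates 1 and 2. Itga7 was 0.0028 without replicates 1 and 2, Itgb5 0.00057 without NOS-null replicate 1 and Lama3 −0.0064 without NOS-null replicate 4. Lama4 was −0.0064 under upper quartile scaling, −0.0273, −0.0354 and −0.000761 without NOS-null replicates 2, 3 and 4, and −0.00865 without WT replicate 1. With 1 library left out Itga5 ranged from −0.20 to 0.032, Itgam from −0.13 to 0.63, Itgb5 from −0.092 to 0.00057, Lama3 from −0.0064 to 0.31 and Lama4 from −0.035 to 0.15. The causes of these shifts were not tested. Replicate numbers were not taken to pair samples. Same-numbered libraries correlated at 0.0428, 0.169, −0.00266 and 0.151, and those with different numbers at −0.180 to 0.112 (deviations from group means over 14008 genes). For NOS-null replicates 2 and 4, but not 1 and 3, the same-numbered WT library correlated highest, so these values do not settle whether samples were paired. With the replicate block 135 of all genes and 1 of these, Itgad, were called (adjusted p = 0.0321). At under 30 scaled reads, the WT level of Itgad and the levels of Itga11 and Itgb8 are set by a few reads. No count model was run for the tests because whole reads were not recovered.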
